A study of Homo sapiens with 6 samples.

Results

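The 10 genes described here encode the 5 NF-kB subunits (NFKB1, NFKB2, RELA, RELB and REL), proteins of the IκB family that bind them (NFKBIA, NFKBIE and BCL3) and the ubiquitin-editing and ubiquitin ligase feedback genes TNFAIP3 and BIRC3. They were listed by gene symbol, with earlier results of these data known, and are 10 of the 16306 genes in the expression table. All 10 passed the filter on low counts that left 12620 genes. RNA-seq was carried out on PC9, a human lung adenocarcinoma cell line with a mutated, activated EGFR, in 2 groups of 3 libraries each. One group carried a negative control shRNA (sh-NC) and the other an shRNA against RBM10 (shRBM10), an RNA-binding protein that regulates splicing. The labels give no further treatment or time and do not name the shRNA used in each shRBM10 library, and nothing in them says that replicates came from separate cultures, so p-values measure the spread between these libraries, which may be technical. The shRBM10 libraries are called A, B and C, because only A could be tied to a replicate number in the labels (replicate 1). The comparison asked which of these genes differed in mRNA level when RBM10 was knocked down.

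NF-kB factors are dimers of subunits that share a DNA-binding domain. RELA, RELB and REL also carry a transactivation domain, while NFKB1 and NFKB2 are made as the precursors p105 and p100 and processed to p50 and p52. In resting cells IκB proteins hold the dimers in the cytoplasm. Signals from cytokine receptors activate the IKK kinases, which mark IκBα (NFKBIA) for degradation, and the freed dimers enter the nucleus. Several of their targets are part of the pathway itself: newly made IκBα takes the dimers out of the nucleus again, and A20 (TNFAIP3) removes the ubiquitin chains that carry the signal. Activity is therefore set largely at the protein level, which mRNA counts do not measure.

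The promoters of these genes are shown first because several of them carry the DNA element that NF-kB dimers bind. The NF-kB (κB) consensus motif was searched on both strands, with overlapping matches allowed, in the 250 bases before each RefSeq start (GRCh38.p14). Of the 10 genes, 8 had such a window (RELB and NFKBIE had none), and 6 of these 8 (75%) held at least 1 match, beside 11.8% of all 27305 genes with a window and 15.9% of the tested genes with one. A gene could have several windows. The matched stretches of these 6 genes are given 5′ to 3′ on the strand of the gene, with the bases of the matches in capitals.
NFKBIA, chr14:35404750-35404889, minus strand: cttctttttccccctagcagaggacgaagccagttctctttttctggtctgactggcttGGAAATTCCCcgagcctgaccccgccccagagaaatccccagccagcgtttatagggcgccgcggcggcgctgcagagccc
TNFAIP3, chr6:137867188-137867217, plus strand: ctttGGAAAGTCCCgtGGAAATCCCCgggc
BIRC3, chr11:102317265-102317378, plus strand: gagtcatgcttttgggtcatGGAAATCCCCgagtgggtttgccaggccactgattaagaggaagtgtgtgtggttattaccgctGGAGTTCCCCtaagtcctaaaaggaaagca
NFKB1, chr4:102501290-102501327, plus strand: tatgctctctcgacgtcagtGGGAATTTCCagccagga
NFKB2, chr10:102394462-102394491, plus strand: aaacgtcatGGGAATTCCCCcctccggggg
REL, chr2:60881517-60881546, plus strand: cgtcagccgcGGGAAATTCCCctcccgcca
NFKB2 held further matches outside the printed stretch. The windows were set by RefSeq starts, while the gene positions given below come from GENCODE. By those gene positions, the printed matches of TNFAIP3, REL and NFKB2 lie inside the gene, after its first base. The printed matches of NFKBIA, BIRC3 and NFKB1 lie before the gene. The windows of RELA and BCL3 held no match, which says only that these letters were not in the 250 bases searched. A match is a description of the sequence, and no binding was measured.

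Total counts ranged from 18181902 to 18864241 in sh-NC and from 16606401 to 18526158 in shRBM10. RBM10 itself had 1431, 1183 and 1469 normalized counts in sh-NC against 537, 515 and 672 in shRBM10 libraries A, B and C (log2 fold change -1.24, SE 0.23, edgeR adjusted p = 0.10). The groups did not overlap, and the call was not reached with edgeR but was with DESeq2 (adjusted p = 0.0015). With the GC trend described next removed, its log2 fold change was -0.97 (SE 0.17, adjusted p = 0.104). A pair of features of the libraries bears on the genes below. First, sh-NC replicate 2 stood apart, with a TMM factor of 0.738 against 1.03 to 1.08 in the other libraries. Second, the libraries differed by base composition. The median log2 difference from the sh-NC mean was lower in the upper than in the lower quartile of GC content by 1.70 in library A and by 1.24 in library B (the difference was -0.16 in library C and between -0.18 and 0.32 in sh-NC). Fold changes of the 10 genes are therefore also given with this GC trend removed from every library. Of the epithelial markers, 7 of 10 had more than 50 counts in every library, with a summed level of 33105 to 41050 CPM (counts scaled to the library total) in sh-NC and 26718 to 37237 in shRBM10, while the lung lineage markers NKX2-1 (0 to 2 counts) and SFTPB (0 to 3.15) were at or near 0. Single epithelial markers differed in sh-NC replicate 2. EGFR had 1890 counts there against 11026 to 14601 in the other libraries, and CDH1 1224 against 3111 to 4373. KRT8 was highest there, with 347195 against 162988 to 264954. The leukocyte marker PTPRC had 0 to 7 counts, and 1 of the 9 leukocyte markers, CD68, had more than 50 counts in every library.

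None of the 10 genes was called different between shRBM10 and sh-NC. Calls needed an edgeR quasi-likelihood p, adjusted over all 12620 genes by the Benjamini-Hochberg method, under 0.05 together with a log2 fold change beyond 1 in either direction, and 0.0158% of all genes (2 of 12620) met this. The adjusted p of the 10 genes lay between 0.194 and 0.820, and DESeq2, which called 4.72% of the genes it gave an adjusted p, also called 0 of the 10. At an unadjusted p under 0.05 RELA was lower and REL higher, which is 2 of 10 where 24.3% of all genes met that limit, and with the fold limit REL alone remained (11.6% of all genes). The groups did not overlap for RELA alone (30.1% of all genes in either direction). The 10 log2 fold changes had a median of 0.033, beside 0.027 for all genes, with 5 above and 5 below 0. None of these counts, all taken before removal of the GC trend, is above its background. In bulk RNA, fewer cells expressing a gene and less RNA per cell cannot be told apart.

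**Figure D1:**
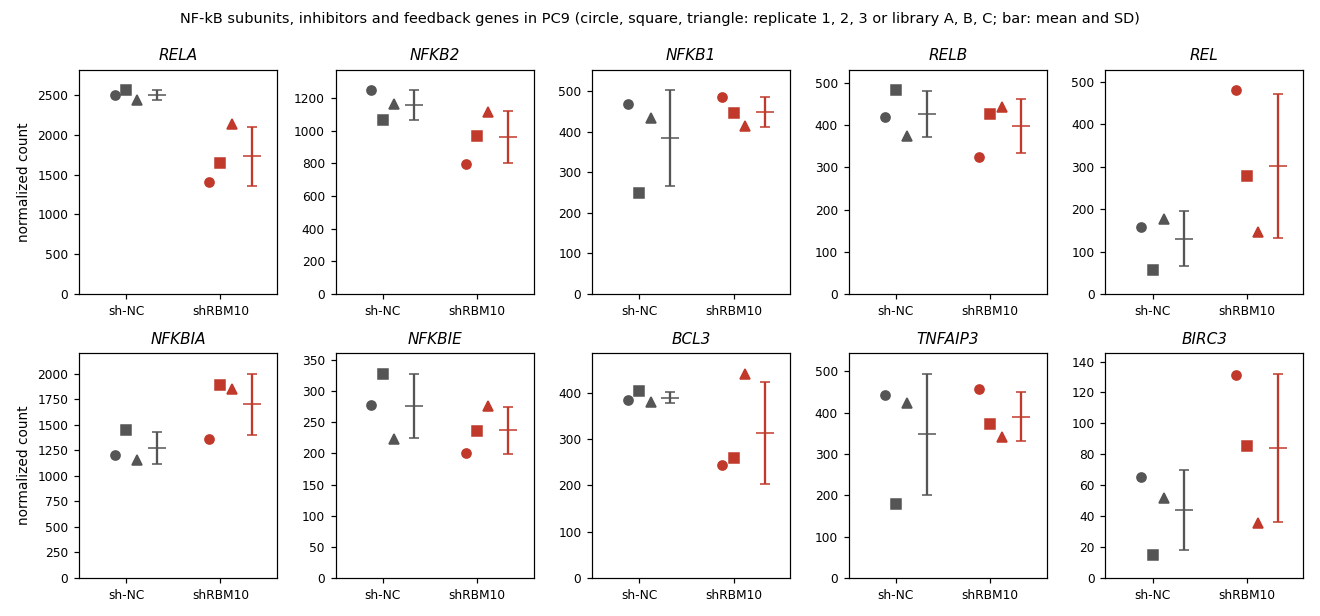
Normalized count (linear axis from 0) of each of the 10 genes in the 3 sh-NC libraries (grey) and the 3 shRBM10 libraries (red); the circle, square and triangle mark replicates 1, 2 and 3 of sh-NC and libraries A, B and C of shRBM10, and the bars show the mean and SD of the 3 libraries. RELA is the only gene whose groups do not overlap, and sh-NC replicate 2 lies below the other 5 libraries for NFKB1, REL, TNFAIP3 and BIRC3.

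RELA (p65, chr11:65653596-65663094, minus strand) encodes the main activating subunit of the canonical pathway. It had 2499, 2562 and 2437 normalized counts in sh-NC against 1410, 1643 and 2137 in shRBM10 libraries A, B and C. Every shRBM10 library was below every sh-NC library, with library C closest to the controls. The log2 fold change was -0.53 (SE 0.23, n = 3 per group, edgeR adjusted p = 0.196), and an exact two-sided permutation test gave p = 0.1, the smallest that 3 against 3 libraries allow. With the GC trend removed the log2 fold change was -0.26 (SE 0.13, adjusted p = 0.328).

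REL (c-Rel, chr2:60881521-60931610, plus strand), the subunit best known from lymphoid cells, had 157, 56.1 and 177 normalized counts in sh-NC against 480, 279 and 145 in shRBM10. Libraries A and B were above all controls, but library C lay below 2 of the 3 sh-NC libraries. Its log2 fold change was the largest of the 10 at 1.20 (SE 0.51, adjusted p = 0.194). Once the GC trend was removed it was 0.46 (SE 0.35, adjusted p = 0.475). Leaving out 1 library moved the value, to 0.70 without library A and 0.76 without sh-NC replicate 2, within a range of 0.70 to 1.48. REL had a GC content of 41.1%, and the summed leukocyte markers ranged from 112 to 136 CPM in sh-NC and from 105 to 133 in shRBM10.

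NFKB1 (p105/p50, chr4:102501329-102617302, plus strand) had 470, 249 and 435 normalized counts in sh-NC against 487, 446 and 415 in shRBM10. Only sh-NC replicate 2 lay far from the rest. The log2 fold change was 0.22 (SE 0.29, adjusted p = 0.632), or 0.12 (SE 0.25) with the GC trend removed, and without sh-NC replicate 2 it was -0.09. NFKB2 (p100/p52, chr10:102394110-102402529, plus strand), the precursor of the non-canonical pathway, had 1246, 1064 and 1162 in sh-NC against 799, 969 and 1113 in shRBM10. Libraries A and B were below all controls and library C was among them. The estimate was a log2 fold change of -0.27 (SE 0.22, adjusted p = 0.440), and 0.02 (SE 0.15) with the GC trend removed. RELB (chr19:45001430-45038198, plus strand), which pairs with p52 in the non-canonical pathway, had 420, 483 and 375 in sh-NC against 325, 426 and 443 in shRBM10, so that the groups overlapped. The fold change was -0.10 on the log2 scale (SE 0.25) and turned to 0.25 (SE 0.17) with the GC trend removed.

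NFKBIA (IκBα, chr14:35401511-35404749, minus strand), the principal cytoplasmic inhibitor and a direct NF-kB target, was the gene of the 10 with the smallest p once the GC trend was removed. It had 1206, 1454 and 1158 normalized counts in sh-NC against 1358, 1895 and 1852 in shRBM10. Libraries B and C were above all controls, and library A was below sh-NC replicate 2. The log2 fold change was 0.42 (SE 0.23, adjusted p = 0.270). Removing the GC trend gave 0.57 (SE 0.17, unadjusted p = 0.013, adjusted p = 0.197), and with GC and length trends removed 0.66 (SE 0.15, adjusted p = 0.097). Leaving out 1 library at a time gave 0.32 to 0.56. Unlike REL and BIRC3, its level in library C (0.55 above the sh-NC mean on the log2 scale), the library without the GC shift, was close to that in library B (0.58) and above that in library A (0.10). With the GC trend removed and sh-NC replicate 2 left out, a setting chosen after the data had been seen, the adjusted p was 0.042. In that setting 495 genes were higher and 498 lower at an adjusted p under 0.05, of 12620, without the fold limit. Over the 16 alternative settings the adjusted p of NFKBIA ranged from 0.042 to 0.585. The absolute log2 fold change of no member passed 1 together with an adjusted p under 0.05.

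NFKBIE (IκBε, chr6:44258166-44265788, minus strand), another cytoplasmic inhibitor, had 278, 327 and 224 normalized counts in sh-NC against 200, 237 and 276 in shRBM10. The ranges overlapped, and the log2 fold change was -0.22 (SE 0.28), or 0.08 (SE 0.18) with the GC trend removed. BCL3 (chr19:44747705-44760044, plus strand), a nuclear member of the IκB family that acts with p50 and p52 homodimers, had 385, 404 and 382 in sh-NC against 243, 259 and 442 in shRBM10. The controls were tight, and libraries A and B lay below them while library C lay above. The log2 fold change was -0.31 (SE 0.30, adjusted p = 0.503), or 0.01 (SE 0.17) with the GC trend removed. It was -0.16 without library A, -0.19 without library B and -0.68 without library C (adjusted p = 0.082, in a range of 0.082 to 0.988 over all alternatives).

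TNFAIP3 (A20, chr6:137867188-137883312, plus strand), which restrains signalling from TNF and toll-like receptors, had 442, 179 and 422 normalized counts in sh-NC against 457, 372 and 342 in shRBM10. A log2 fold change of 0.16 (SE 0.35), or 0.10 (SE 0.34) with the GC trend removed, turned to -0.23 without sh-NC replicate 2. BIRC3 (cIAP2, chr11:102317450-102339403, plus strand), a ubiquitin ligase bound to TNF receptor complexes, was the scarcest of the 10, with 65.3, 15.1 and 51.4 in sh-NC against 131, 85.3 and 35.5 in shRBM10. Libraries A and B were above all controls and library C was between sh-NC replicates 2 and 3. The log2 fold change was 0.91 (SE 0.56, adjusted p = 0.315), or 0.13 (SE 0.41) with the GC trend removed. It was 0.43 without sh-NC replicate 2 and also without library A, and up to 1.30 (without sh-NC replicate 1).

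**Figure D2:**
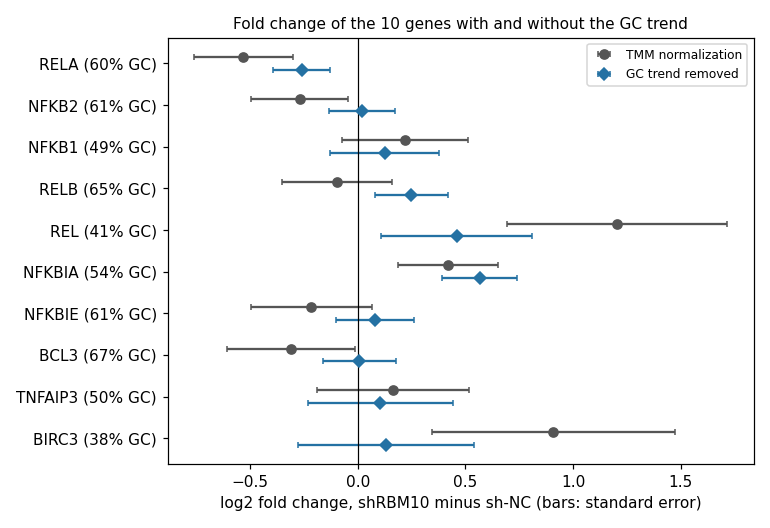
Log2 fold change of shRBM10 against sh-NC for each of the 10 genes, with its standard error, after TMM normalization (grey circles) and with the GC trend of each library removed (blue diamonds); the GC content of the gene is given beside its name. REL moves from 1.20 to 0.46 and BIRC3 from 0.91 to 0.13, while NFKBIA moves from 0.42 to 0.57.

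With the GC trend removed, 0 of the 10 were called (0.00792% of all genes), and NFKBIA alone had an unadjusted p under 0.05 (18.6% of all genes), without passing the fold limit (4.83% of all genes). Removing the trend brought 8 of the 10 log2 fold changes closer to 0, leaving them between -0.26 and 0.57, with 9 of 10 under 0.5 in size. NFKBIA and RELB were the exceptions. With the trend removed, 9 of the 10 log2 fold changes were above 0, all but RELA, beside 48.3% of all genes. Their median was 0.11, beside -0.02 for all genes. With sh-NC replicate 2 also left out, a setting chosen after the data had been seen, 4 of 10 were above 0, beside 50.6% of all genes. The GC shift was plainest in library A. The genes with the lowest GC content, BIRC3 (38.5%) and REL (41.1%), were 1.81 and 2.04 above the sh-NC mean on the log2 scale in library A and 1.18 and 1.26 above it in library B. Those with a GC content over 60%, RELA, NFKBIE, NFKB2, RELB and BCL3, lay between -0.83 and -0.38 in library A and between -0.60 and 0.01 in library B, where RELB was level with the sh-NC mean. In library C, which had no such shift in GC, the 10 genes lay between -0.23 and 0.55, with RELA at the low and NFKBIA at the high end.

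**Figure D3:**
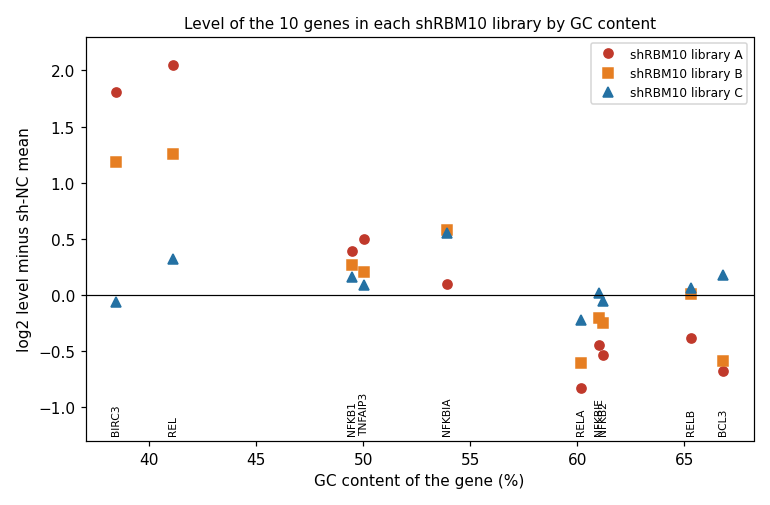
Level of each of the 10 genes in each shRBM10 library relative to the sh-NC mean (log2 scale) against the GC content of the gene. In library A (circles) and B (squares) BIRC3 and REL are 1.18 to 2.04 above the sh-NC mean and RELA and BCL3 are below it, while in library C (triangles) all 10 genes lie between -0.23 and 0.55.

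Levels of different genes were compared per length with the authors' TPM, which were used for sh-NC and library A. In sh-NC RELA (68.1 ± 22.4 TPM, SD, n = 3) and NFKBIA (58.3 ± 14.5) were highest. RELA was above NFKBIA in each of the 3 sh-NC libraries, by 81.4 to 67.5, 42.2 to 41.6 and 80.6 to 65.8 TPM, so the order held within libraries although both genes were lower in replicate 2. NFKB2 followed at 25.6 ± 10.1, BCL3 at 14.4 ± 4.71 and RELB at 12.8 ± 3.34, and BCL3 was above RELB in 2 of the 3 libraries. NFKBIE (7.81 ± 1.96), NFKB1 (7.01 ± 3.85) and TNFAIP3 (5.36 ± 3.34) had overlapping ranges over the 3 libraries. REL (0.820 ± 0.552) and BIRC3 (0.553 ± 0.407) were lowest. In library A NFKBIA stood at 77.9 TPM and RELA at 46.8, so the order of this pair was the opposite of that in the sh-NC mean. The GC trend described above was not removed from these TPM.

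The ratio of inhibitor to subunit can be read within each library without a scaling factor. Counts of NFKBIA were 0.483, 0.568 and 0.475 of those of RELA in sh-NC against 0.964, 1.15 and 0.867 in shRBM10 libraries A, B and C. The groups did not overlap, in library C as in A and B, but how many other gene pairs do the same was not counted. The ratio is not corrected for the GC shift of libraries A and B. The GC content was 53.9% for NFKBIA and 60.2% for RELA. The ratio was chosen after the values of both genes had been seen and was not tested. The ratio of REL to RELA counts was 0.063, 0.022 and 0.072 in sh-NC against 0.341, 0.170 and 0.068 in shRBM10, where library C was within the range of the controls.

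Across the 6 libraries, the genes whose centred log2 CPM was nearest to that of NFKB1 were CTCF, CBLB and PDE12 (root mean square difference 0.038 to 0.055 on the log2 scale, among 12619 other genes). The nearest of the other 9 genes was TNFAIP3, at rank 131 with a difference of 0.15. The nearest to NFKBIA were CALCOCO1, ANKRD34A and EFNA1 (0.093 to 0.097), and the nearest of the other 9 was RELB at rank 679 (0.26). These likenesses rest on 6 libraries that share the GC and depth differences given above.

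RBM10 being a splicing regulator, transcript usage of the same genes was examined in the transcript table. Of the 10 genes, 7 had at least 2 transcripts above the count filter, and 0 of 7 were called different in usage. In the edgeR diffSpliceDGE fit across all genes the adjusted Simes p was 1.00 for each, and the unadjusted p ran from 0.759 to 0.982, so that 0 were under 0.05. Of all 8348 genes tested, 0.0958% had an adjusted Simes p under 0.05. NFKBIA and NFKBIE were listed with 1 transcript each, and BIRC3 kept 1. The leading RELA transcript held 89.9%, 90.5% and 89.4% of its counts in sh-NC against 90.4%, 91.9% and 91.6% in shRBM10. For RELB, NM_006509 held 63.8%, 72.8% and 72.9% against 79.8%, 79.2% and 76.9%. XM_005259127 of RELB held 31.4%, 14.0% and 19.3% against 9.86%, 13.0% and 10.9%. The groups did not overlap for these RELB shares, and how many transcripts of all genes do the same was not counted. The unadjusted Simes p of RELB was 0.835. For TNFAIP3 the share of the transcript NM_006290 ran from 0 to 53.7% within sh-NC alone and from 38.4 to 60.4% in shRBM10. Reads shared by transcripts were divided among them by estimation, and this spread within a group limited what could be detected.

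The other 48 components of the pathway were listed by role, and 46 of them were tested. None was called with edgeR, while DESeq2 called 6 of 46, 5 higher and 1 lower, beside 4.72% of all genes. At an unadjusted p under 0.05, 13 of 46 (28.3%) were higher in shRBM10, beside 15.7% of all genes, and 6 (13.0%) were lower, beside 8.6%. With the fold limit 12 were higher, beside 10.1% of all genes, and 0 lower, beside 1.53%. After removal of the GC trend, 7 (15.2%) were higher, beside 8.7% of all genes, and 3 (6.52%) were lower, beside 9.9%. None then passed the fold limit in either direction, beside 2.69% of all genes higher and 2.15% lower. Median log2 fold changes were 0.15 for the list and 0.03 for all genes, and 0.09 and -0.02 with the GC trend removed. Before that removal, all 13 components higher at an unadjusted p had a GC content below 50%, and all 6 lower ones above 59%. The GC content of the remaining components was not set beside these, and a cause was not tested.

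TAX1BP1, an adaptor that helps A20 find its substrates, had 1424, 1028 and 1517 normalized counts in sh-NC against 4228, 3918 and 2129 in shRBM10. Every shRBM10 library was higher, and library C least so. TAX1BP1 had a log2 fold change of 1.37 (SE 0.30, adjusted p = 0.129), or 0.63 (SE 0.14, adjusted p = 0.140) with the GC trend removed. TLR3, the endosomal receptor for double-stranded RNA, had 42.6, 19.2 and 38.8 in sh-NC against 142, 119 and 64.4 in shRBM10. For TLR3 the log2 fold change was 1.67 (SE 0.41, adjusted p = 0.142), or 0.94 (SE 0.23, adjusted p = 0.150) with the GC trend removed. TANK, a scaffold of the IKK-related kinases, went from 1.31 (SE 0.38) to 0.63 (SE 0.23) when the GC trend was removed, and IL1R1, the interleukin 1 receptor, from 1.05 (SE 0.32) to 0.44 (SE 0.21). With DESeq2, TAX1BP1, TLR3 and TANK were called (adjusted p = 0.0063, 0.015 and 0.030) and IL1R1 was not (0.054). CARD10 and IRAK1, named after their values had been seen, were lower at an unadjusted p in both edgeR fits. CARD10 had a log2 fold change of -0.9998 (SE 0.27, adjusted p = 0.148), or -0.70 (SE 0.20, adjusted p = 0.189) with the GC trend removed. IRAK1 went from -0.85 (SE 0.28) to -0.54 (SE 0.18).

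Over all genes, 15.7% were higher and 8.6% lower at an unadjusted p, and 8.7% and 9.9% with the GC trend removed. By role, the TAK1 complex, which activates IKK, had MAP3K7 and TAB2 higher at an unadjusted p (2 of 4) and 0 of 4 with the GC trend removed. Among the IKK kinases and their relatives, CHUK, TBK1 and TANK were higher and IKBKG lower at an unadjusted p, against IKBKE and TANK higher with the GC trend removed. The linear ubiquitin ligase (RNF31, RBCK1, SHARPIN) had 0 of 3 at that limit in either fit. In the non-canonical arm BIRC2 was higher and MAP3K14 lower, and neither with the GC trend removed. Of 16 receptors and adaptors, IL1R1, TLR3 and IRAK4 were higher and TNFRSF12A, IRAK1 and CARD10 lower. With the GC trend removed TLR3 was higher and IRAK1 and CARD10 lower. Of 9 brakes on the pathway, CYLD, TAX1BP1 and N4BP1 were higher, against CYLD and TAX1BP1 higher and OTULIN lower with the GC trend removed. Of 4 other IκB proteins, NFKBIZ, an inducible nuclear IκB, was higher at an unadjusted p in both fits (log2 fold change 1.12, adjusted p = 0.155, and 0.76, adjusted p = 0.226). NFKBIL1 was lower at that limit before the GC trend was removed (-0.72), and NFKBID, another nuclear IκB, was higher after (0.61). These genes were named for their role after their values had been seen.

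Of 55 textbook NF-kB targets outside the 10 genes, 51 were in the table and 43 were tested. None was called with edgeR, while DESeq2 called 6 of 43, all higher, beside 4.72% of all genes in either direction (452 higher and 121 lower). At an unadjusted p under 0.05, 13 of 43 (30.2%) were higher, beside 15.7% of all genes, and 3 (6.98%) were lower, beside 8.6%. The 3 lower ones, named after their values had been seen, were GADD45B, PTX3 and MYC. The fold limit left 9 higher (20.9%), beside 10.1%. After removal of the GC trend, 14 (32.6%) were higher, beside 8.7% of all genes, and 5 lower (11.6%), beside 9.9%, and the fold limit left 7 higher (16.3%), beside 2.69%, and 2 lower, PTGS2 (-1.31) and PTX3 (-1.13), beside 2.15%. These 2 were likewise named after their values had been seen. The median log2 fold change was 0.23 and, with the GC trend removed, 0.28, beside 0.03 and -0.02 for all genes. The κB consensus was found in the promoter windows of 21 of 42 targets (50%) and of 11 of 43 pathway components (25.6%).

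C3, the central complement component, had 500, 456 and 465 normalized counts in sh-NC against 1206, 1222 and 1799 in shRBM10. Every shRBM10 library was well above every control, with library C highest. Its log2 fold change was 1.57 (SE 0.25, adjusted p = 0.089), or 1.77 (SE 0.16, adjusted p = 0.056) with the GC trend removed. CFB, complement factor B, had 2171, 2046 and 2094 in sh-NC against 4478, 4518 and 6368 in shRBM10, again highest in library C. CFB had a log2 fold change of 1.28 (SE 0.23, adjusted p = 0.10), or 1.37 (SE 0.17, adjusted p = 0.077) with the GC trend removed.

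TNFSF10, the death ligand TRAIL, was low, with 16.3, 8.22 and 4.51 normalized counts in sh-NC against 77.0, 82.4 and 49.9 in shRBM10. This gave TNFSF10 a log2 fold change of 2.82 (SE 0.47, adjusted p = 0.089), or 2.15 (SE 0.41, adjusted p = 0.115) with the GC trend removed. CXCL10, a chemokine that draws T cells, had 31.7, 65.7 and 32.5 in sh-NC against 158, 168 and 120 in shRBM10. Its log2 fold change was 1.80 (SE 0.37, adjusted p = 0.118), or 1.06 (SE 0.42, adjusted p = 0.255) with the GC trend removed. Both genes are also induced by interferons. DESeq2 called C3, CFB, TNFSF10 and CXCL10 (adjusted p from 6.8e-05 to 0.0015).

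ICAM1, an adhesion molecule used as a standard readout of NF-kB activity, had 1125, 963 and 1086 in sh-NC against 1546, 1608 and 1941 in shRBM10. The groups did not overlap. ICAM1 had a log2 fold change of 0.68 (SE 0.21, adjusted p = 0.156), or 0.95 (SE 0.15, adjusted p = 0.090) with the GC trend removed. CXCL8 and IL6, cytokine genes often used for the same purpose, did not share this pattern. CXCL8, the neutrophil chemokine, had 660, 1141 and 681 in sh-NC against 938, 707 and 601 in shRBM10 (log2 fold change -0.14, SE 0.29), and its value fell to -0.92 (SE 0.35, adjusted p = 0.246) with the GC trend removed. IL6 was scarce, with 40.8, 32.9 and 41.5 in sh-NC against 44.1, 39.3 and 51.9 in shRBM10 (log2 fold change 0.23, SE 0.30). The difference of CXCL8 and IL6 from ICAM1 was not tested. Other cytokine genes of the list were mixed. CSF1, CXCL1, CXCL10 and TNFSF10 were higher without overlap, beside 13.8% of all genes. CXCL2, CCL5, IL1B, IL32, LIF, TNF and LTB overlapped. CSF1 had a log2 fold change of 1.12 (SE 0.31), or 1.35 (SE 0.27) with the GC trend removed. CXCL1 had 0.74 (SE 0.31), or 0.34 (SE 0.22).

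**Figure D4:**
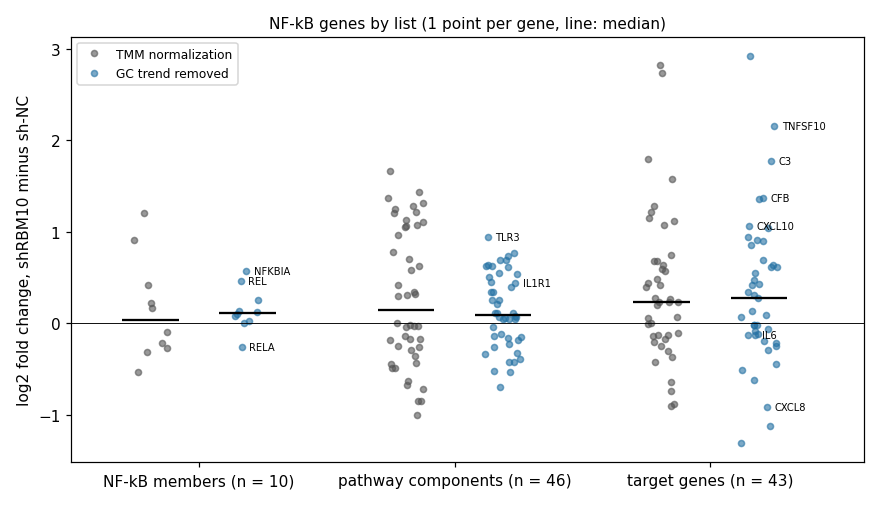
Log2 fold change of shRBM10 against sh-NC for each tested gene of the 3 lists (10 members, 46 pathway components, 43 targets), after TMM normalization (grey) and with the GC trend removed (blue); horizontal lines are list medians and some genes are named. The pathway components draw together when the GC trend is removed, with none beyond 1 on the log2 scale, while C3 (1.77), CFB (1.37) and TNFSF10 (2.15) stay above 1.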

How the data were processed

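The authors deposited a gene table (16306 genes) and a transcript table (76563 transcripts) from bulk RNA-seq of PC9 cells, with genome build hg38 per the submitters' notes. The aligner, counting tool and annotation are not given in the sources used here. The protocol text speaks of retinas and of more than 1 library kit, while the labels give PC9 cells, and it ties no kit to a library. The summed retina markers stayed between 4.03 and 6.49 CPM and those of fibroblasts and endothelium between 3.02 and 12.0 CPM. The values used were the authors' estimated counts (87.5% whole in the gene table and 41.1% in the transcript table) and, for sh-NC and library A, the authors' TPM. In all, 22 columns of the gene table and 26 of the transcript table were not used. The columns of libraries B and C match no sample title and have the group but no replicate number.

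Estimated counts were rounded, filtered with filterByExpr (12620 genes), normalized by TMM and fitted with edgeR 4.0.16 (glmQLFit, glmQLFTest; R 4.3.3) over all 6 libraries without covariates. Normalized counts are counts divided by the effective library size and scaled to its mean over libraries. The SE is the log2 fold change divided by the square root of F. The GC trend of each library was removed by lowess offsets (span 0.3), with gene GC content and positions from GENCODE 29 (12343 genes matched, 97.8%). Transcript usage was tested with diffSpliceDGE. The fits were tested on simulated data. Alternatives were DESeq2 1.42.0, limma-voom (limma 3.58.1), other normalizations and count filters, GC and length offsets and leaving out each library.

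Members, lists and tests were chosen with earlier results of these data known. Named genes were the 10 members, RBM10, up to 4 genes per direction of each list with the smallest p among those past 0.05 unadjusted and past a log2 change of 1 in size, and CXCL8, IL6 and ICAM1, whatever their values. For NFKB1 and NFKBIA, the 3 nearest genes were named. Transcripts with at least 10% of a gene's counts were considered.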

Additional observations from a re-analysis of the deposited data

How the results depend on the processing

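No paired analysis was possible because the columns of the groups share only 1 replicate number. Each group had 3 libraries, libraries A and B were shifted by GC content, and sh-NC replicate 2 stood apart. A p that missed the threshold does not show that levels were equal. Library size alone in place of TMM moved the median log2 fold change of all genes from 0.03 to 0.16. The next values are log2 fold changes whose sign turned, none of them with an adjusted p under 0.05, and the cause was not tested. With the GC trend removed these were NFKB2 (0.020), RELB (0.25), NFKBIE (0.080), BCL3 (0.0060) and IL6 (-0.13). With GC and length trends removed they were RELB (0.26), NFKBIE (0.052), BCL3 (0.088) and IL6 (-0.071). With library size only they were RELB (0.045) and CXCL8 (0.050). Without sh-NC replicate 2 they were NFKB1 (-0.094), TNFAIP3 (-0.23) and CXCL8 (0.072), and without shRBM10 library A RELB (0.029). Leaving out 1 library thus gave -0.094 to 0.39 for NFKB1, -0.22 to 0.029 for RELB, -0.23 to 0.37 for TNFAIP3 and -0.34 to 0.072 for CXCL8. With the GC trend removed and without sh-NC replicate 2, chosen after the data had been seen, they were NFKB1 (-0.12), RELB (0.31), NFKBIE (0.18), TNFAIP3 (-0.21), BIRC3 (-0.15) and IL6 (-0.21).

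Calls among the 10 genes stayed at 0 in every alternative. At an unadjusted p with the fold limit the count of 1 (REL) became 0 with limma-voom, library size only, both trend removals and that added setting, 0 to 1 when 1 library was left out (0 without sh-NC replicate 2, library A or library B), and 2 without the fold limit. For pathway components the 0 calls became 6 with DESeq2, and the 12 at an unadjusted p became 0 with either trend removed and in the added setting, 4 (without sh-NC replicate 2 or library A) to 14 when 1 library was left out, and 19 without the fold limit. For targets the 0 calls became 6 with DESeq2, 2 without a count filter, 1 with GC and length trends removed, 0 to 2 when 1 library was left out (2 without sh-NC replicate 2) and 8 in the added setting, and calls over all genes moved as well, from 2 to 573, 30 (of the same 12620 genes), 27, 23 (without sh-NC replicate 2) and 249 in the same order. The 9 at an unadjusted p became 16 without the fold limit. RBM10 passed the adjusted threshold with DESeq2 (-1.26), with GC and length trends removed (-1.05), without sh-NC replicate 2 (-1.42; range over libraries left out -1.43 to -1.17) and in the added setting (-1.09).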
